A study of Arabidopsis thaliana with 8 samples.

Results

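ER body genes are described here as a set of 10 Arabidopsis loci out of the 27416 in the files. They encode the β-glucosidases BGLU23 (AT3G09260, also called PYK10), BGLU21 (AT1G66270), BGLU22 (AT1G66280), BGLU18 (AT1G52400) and BGLU19 (AT3G21370). The others are the bHLH transcription factor NAI1 (AT2G22770), the ER body proteins NAI2 (AT3G15950), MEB1 (AT4G27860) and MEB2 (AT5G24290), and the lectin PBP1 (AT3G16420). They were taken by locus from a fixed list that was drawn up with results of these data in view. Their levels and changes are therefore given as a description, with no p-value. Transcripts of whole Col-0 seedlings were sequenced in 4 groups of 2 libraries. Seedlings grew for 5 days in darkness on MS medium with sucrose, after cold and a pulse of white light. The phyAB red, phyB red and WT red groups were phyA phyB double mutant, phyB mutant and wild-type seedlings exposed for 1 h to red light (50 µmol m-2 s-1). The WT dark group was wild type with no red light. No allele is named in the sources used here, and mutants kept in darkness were not analysed here, so a mutant level in red light and one already present in darkness cannot be told apart.

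ER bodies are spindle-shaped compartments continuous with the endoplasmic reticulum, abundant in seedlings of Arabidopsis and other Brassicales and in roots. They store large amounts of β-glucosidase, which meets its substrates when cells are broken and so forms part of the defence against herbivores and microbes. NAI1 is required for the expression of PYK10 and other ER body genes, NAI2 for the formation of the bodies, MEB1 and MEB2 are membrane proteins of the body, and PBP1 is a cytosolic jacalin-related lectin that binds PYK10 after cell damage. Phytochromes A and B, the products of PHYA and PHYB, sense red and far-red light and through them light ends the dark programme of the seedling.

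The 5 enzymes share a short ending that keeps soluble proteins in the endoplasmic reticulum. It is shown because it is a mark of the ER body enzymes and differs among them. The last 36 coding bases before the stop codon are given 5′ to 3′ from RefSeq, TAIR10.1, with the final 4 codons, which encode the retention signal, in capitals.
BGLU23: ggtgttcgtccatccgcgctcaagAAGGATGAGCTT
BGLU21: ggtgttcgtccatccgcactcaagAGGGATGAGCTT
BGLU22: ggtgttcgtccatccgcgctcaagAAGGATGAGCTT
BGLU18: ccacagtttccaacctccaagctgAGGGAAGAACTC
BGLU19: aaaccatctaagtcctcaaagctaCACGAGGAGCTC
The stretches lie at chr3:2840660-2840695 (minus strand) for BGLU23, chr1:24700113-24700148 (minus) for BGLU21, chr1:24706762-24706797 (minus) for BGLU22, chr1:19517892-19517927 (plus) for BGLU18 and chr3:7524289-7524324 (minus) for BGLU19. BGLU23 and BGLU22 were identical over the last 12 bases, and BGLU23 and BGLU21 shared 11 of the 12. BGLU18 and BGLU19 each shared 8 of the 12 with BGLU23. Over the whole coding sequence BGLU21 and BGLU22, which lie next to each other on chromosome 1, were 93.3% identical (1469 of 1575 bases). BGLU23 was 84% identical to BGLU21 and 83.8% to BGLU22, while BGLU18 and BGLU19 were 73.8% identical to each other and about 70% to BGLU23 (70.4% and 70.2%). How reads were divided between BGLU21 and BGLU22 is not known, so their separate levels are uncertain.

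The 250 bases before the RefSeq transcript start are shown for 3 of the genes whose levels differed between the groups, the main enzyme BGLU23, the regulator NAI1 and the structural gene NAI2. Capitals mark CACGTG (the G-box) or CACATG, which are variants of the E-box bound by bHLH factors.
BGLU23: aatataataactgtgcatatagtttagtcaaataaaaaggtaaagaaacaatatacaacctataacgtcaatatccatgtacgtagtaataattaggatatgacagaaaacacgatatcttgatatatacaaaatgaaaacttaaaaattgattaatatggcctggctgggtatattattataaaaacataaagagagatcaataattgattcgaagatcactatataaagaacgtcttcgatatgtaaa
NAI1: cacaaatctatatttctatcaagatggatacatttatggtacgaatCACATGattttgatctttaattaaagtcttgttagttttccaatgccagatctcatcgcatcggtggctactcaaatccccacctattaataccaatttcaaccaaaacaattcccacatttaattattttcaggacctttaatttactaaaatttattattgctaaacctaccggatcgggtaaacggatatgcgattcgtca
NAI2: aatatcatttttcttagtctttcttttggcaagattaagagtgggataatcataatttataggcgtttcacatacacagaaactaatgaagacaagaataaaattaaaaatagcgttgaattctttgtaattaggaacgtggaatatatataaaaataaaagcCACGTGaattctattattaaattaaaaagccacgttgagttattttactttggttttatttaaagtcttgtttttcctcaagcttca
These windows are chr3:2843782-2844031 (minus strand), chr2:9684312-9684561 (plus) and chr3:5402653-5402902 (minus) in TAIR10.1. CACGTG began 87 bases before the start of NAI2, at position -87, and CACATG at position -204 of NAI1. Among the 10 genes, searched on both strands, CACGTG occurred in 1 (NAI2), CACATG in 2 (NAI1 and BGLU19), the general form CANNTG, which contains both, in 5, and the evening element AAAATATCT in 0. Over 26694 promoters of the same length the shares were 6.74%, 11%, 55.1% and 2.36% in the same order. A match is only a match of letters.

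Libraries held 15926547 to 22116924 reads. The labels number the libraries of a group as replicates without naming separate cultures. Their squared read differences were 1.34 to 1.47 times what counting alone gives, with a common biological coefficient of variation of 1.59%, so the standard errors measure only a spread that may be technical. PHYA averaged 124 CPM (read counts scaled to library size) in phyAB red and 703 in phyB red, against 467 in WT red, and PHYB averaged 51.7 in phyAB red and 63.3 in phyB red, against 95.6 in WT red. Both transcripts remained detectable in the mutants that lack the receptor by label. In whole seedlings, fewer cells with ER bodies and less RNA per cell cannot be told apart.

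BGLU23 was the most abundant transcript in each of the 8 libraries, with 1.61% and 1.62% of all reads in phyAB red, 1.11% and 1.12% in phyB red, 1.78% in both WT red libraries and 1.36% in both WT dark libraries. The 10 genes together held 2.40% of the reads in each phyAB red library, 1.76% in each phyB red library, 2.68% in each WT red library and 2.09% in each WT dark library. BGLU23 alone made up 63.3% to 67.3% of the reads of the set. The set was thus largest in red-lit wild type and smallest in red-lit phyB, with phyAB between WT red and WT dark.

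The main enzyme BGLU23, which hydrolyses glucosides including indole glucosinolates, had 15857 and 15738 CPM in phyAB red, 11068 and 11121 in phyB red, 18238 and 18231 in WT red, and 13647 and 13653 in WT dark. No groups overlapped, and the order was phyB red, WT dark, phyAB red, WT red from low to high. The log2 change of BGLU23 was 0.42 ± 0.0045 (± SE of the fit) in WT red over WT dark, -0.72 ± 0.0051 in phyB red over WT red, -0.21 ± 0.0039 in phyAB red over WT red and 0.51 ± 0.0052 in phyAB red over phyB red. In folds, BGLU23 was 1.34 times as high in WT red as in WT dark and 1.64-fold lower in phyB red than in WT red. The difference between phyAB red and WT red was 1.15-fold. On the strand opposite to BGLU23 the gene AT3G09250 overlaps it by 138 bases and had between 5.51 and 8.01 CPM, far below BGLU23.

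**Figure D1:**
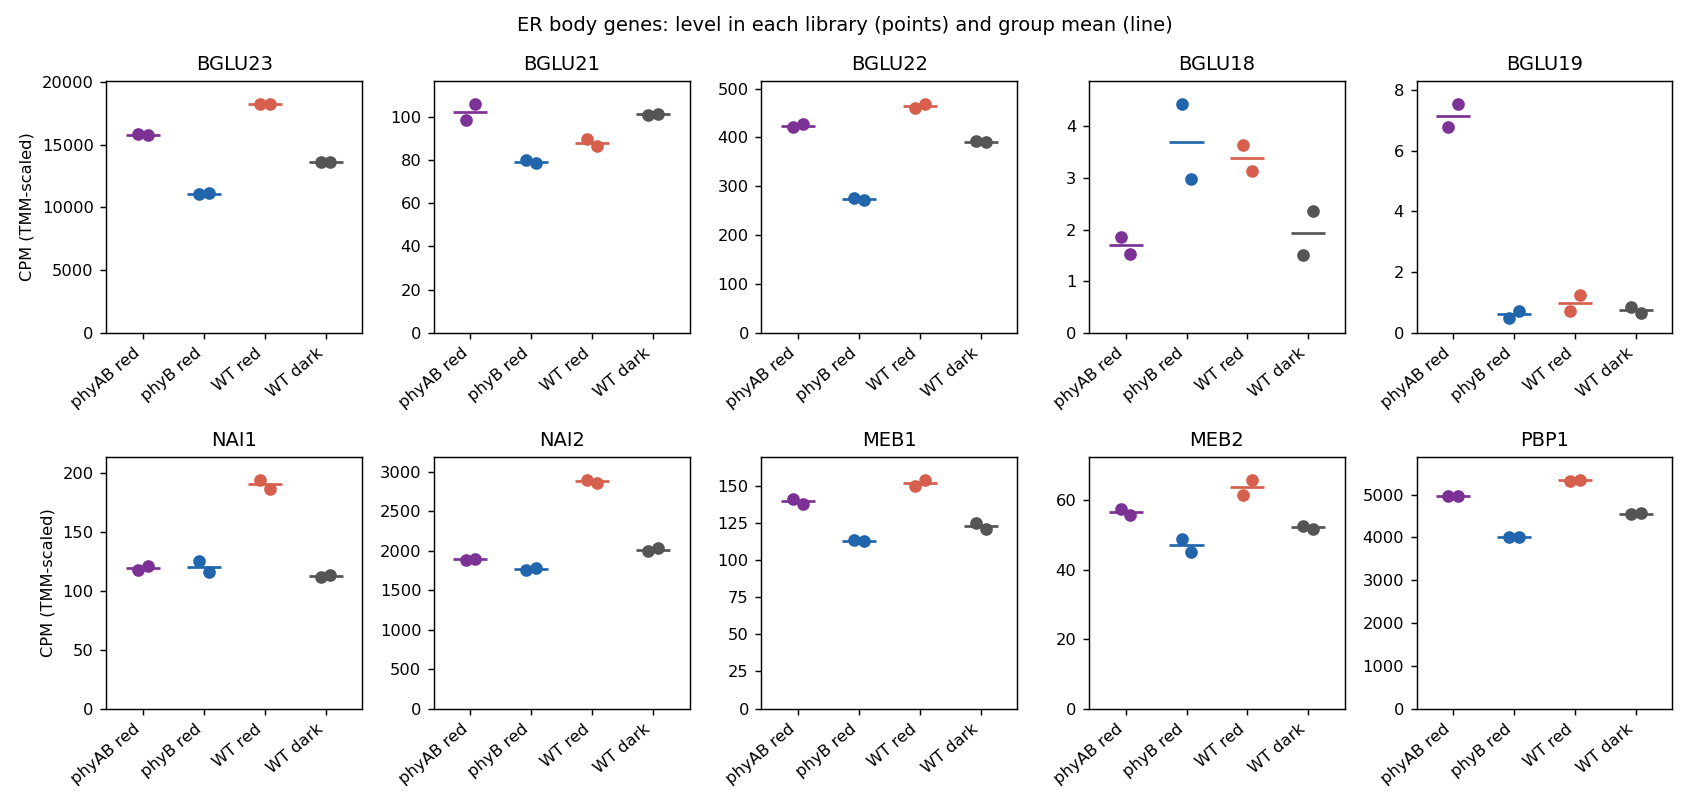
Level of each ER body gene in CPM (vertical axis, linear, from 0, a separate scale per panel) in the phyAB red, phyB red, WT red and WT dark groups. Points are the 2 libraries of a group and lines their mean. BGLU23, BGLU22, MEB1, MEB2 and PBP1 are lowest in phyB red and highest in WT red, and BGLU19 is high only in phyAB red among the groups drawn.

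BGLU22 and BGLU21 are close relatives of BGLU23 that hydrolyse the coumarin glucoside scopolin in roots. BGLU22 had 420.87 and 427.86 CPM in phyAB red, 275.54 and 272.56 in phyB red, 460.69 and 468.64 in WT red, and 391.99 and 390.64 in WT dark. It followed the order of BGLU23 with no overlap between groups. Its log2 change was 0.25 ± 0.020 in WT red over WT dark, -0.76 ± 0.022 in phyB red over WT red, -0.13 ± 0.019 in phyAB red over WT red and 0.63 ± 0.022 in phyAB red over phyB red.

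BGLU21 had 98.4 and 105.89 CPM in phyAB red, 79.8 and 78.7 in phyB red, 89.5 and 86.6 in WT red, and 100.74 and 101.45 in WT dark. It was the one gene of the set that was called lower in WT red than in WT dark, at a log2 change of -0.20 ± 0.041, and its phyAB red and WT dark libraries overlapped. Its other changes were -0.15 ± 0.043 in phyB red over WT red, 0.21 ± 0.041 in phyAB red over WT red and 0.36 ± 0.041 in phyAB red over phyB red. The phyB value no longer passed the threshold without WT red replicate 1 (-0.13 ± 0.055), without phyB replicate 2 (-0.14 ± 0.055) or by DESeq2 (-0.15 ± 0.057).

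BGLU18 and BGLU19 were scarce. BGLU18, the enzyme of the ER bodies that form in leaves after wounding, had 1.85 and 1.53 CPM in phyAB red, 4.43 and 2.97 in phyB red, 3.63 and 3.13 in WT red, and 1.503 and 2.36 in WT dark. These levels rest on 26 to 71 reads per library. WT red and phyB red overlapped and lay above phyAB red and WT dark, which also overlapped. The log2 change was 0.82 ± 0.25 in WT red over WT dark, 0.09 ± 0.23 in phyB red over WT red, which was not called, -0.99 ± 0.26 in phyAB red over WT red and -1.08 ± 0.25 in phyAB red over phyB red. The call in WT red over WT dark was lost without WT dark replicate 1 (0.49 ± 0.30), without WT red replicate 1 (0.70 ± 0.32) and by DESeq2 (0.80 ± 0.34).

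BGLU19, a near relative of BGLU18, had 150 and 128 reads in phyAB red, 8 and 16 in phyB red, 14 and 20 in WT red, and 17 and 12 in WT dark. In CPM these were 6.78 and 7.54 in phyAB red, 0.499 and 0.719 in phyB red, 0.725 and 1.25 in WT red, and 0.852 and 0.644 in WT dark. The phyAB red libraries stood far above the rest, while WT red and WT dark overlapped, as did phyB red and WT dark. The log2 change was 2.87 ± 0.26 (7.33-fold) in phyAB red over WT red and 3.50 ± 0.28 (11.3-fold) in phyAB red over phyB red. In WT red over WT dark it was 0.36 ± 0.40 and in phyB red over WT red -0.62 ± 0.42, and neither was called. AT3G21360, on the opposite strand, overlaps BGLU19 by 527 bases. It had 5.87 and 5.30 CPM in phyAB red, 5.24 and 4.18 in phyB red, 4.14 and 4.01 in WT red, and 5.91 and 5.16 in WT dark. Its phyAB red libraries thus lay above those of phyB red and WT red and overlapped those of WT dark. Whether reads of AT3G21360 entered the count of BGLU19 was not tested.

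NAI1, the transcription factor, had 117.96 and 120.86 CPM in phyAB red, 125.3 and 116.36 in phyB red, 194.68 and 186.89 in WT red, and 112.16 and 113.9 in WT dark. WT red stood alone above the other 3 groups, and the 2 mutants overlapped. The log2 change was 0.76 ± 0.034 in WT red over WT dark, -0.67 ± 0.034 in phyB red over WT red, -0.68 ± 0.034 in phyAB red over WT red and -0.01 ± 0.036 in phyAB red over phyB red, which was not called.

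NAI2, a large protein that builds the ER body, had 1886.8 and 1900.8 CPM in phyAB red, 1759.3 and 1781.4 in phyB red, 2902.7 and 2855.9 in WT red, and 1992.7 and 2034.3 in WT dark. Both mutants were below WT dark, phyB red lowest, with no overlap. Its log2 change was 0.52 ± 0.014 in WT red over WT dark, -0.70 ± 0.015 in phyB red over WT red and -0.60 ± 0.014 in phyAB red over WT red. The difference between phyAB red and phyB red was 0.10 ± 0.021, and it passed the threshold with all 8 libraries but not when any 1 of the 4 libraries of these groups was left out (0.088 to 0.106).

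MEB1 and MEB2, which resemble transporters of iron and manganese, followed BGLU23 in order. MEB1 had 141.04 and 138 CPM in phyAB red, 113.51 and 112.68 in phyB red, 150.02 and 154.1 in WT red, and 124.69 and 120.73 in WT dark. MEB2 had 57.4 and 55.9 CPM in phyAB red, 48.9 and 45.2 in phyB red, 61.5 and 66.0 in WT red, and 52.7 and 51.9 in WT dark. Neither gene had overlapping groups. The log2 change of MEB1 was 0.31 ± 0.035 in WT red over WT dark, -0.43 ± 0.035 in phyB red over WT red, -0.12 ± 0.034 in phyAB red over WT red and 0.30 ± 0.035 in phyAB red over phyB red. That of MEB2 was 0.28 ± 0.053 in WT red over WT dark, -0.44 ± 0.054 in phyB red over WT red, -0.17 ± 0.052 in phyAB red over WT red and 0.28 ± 0.054 in phyAB red over phyB red. The phyAB value against WT red was not called without WT red replicate 2 (-0.12 ± 0.063). A long non-coding RNA, AT4G27852, overlaps MEB1 by 200 bases on the opposite strand and is not among the loci of the files.

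PBP1 had 4975.7 and 4962.9 CPM in phyAB red, 4019.1 and 4014 in phyB red, 5321.2 and 5348.3 in WT red, and 4552 and 4558.9 in WT dark. Its groups were separate and in the order of BGLU23, over a narrower range. The log2 change of PBP1 was 0.23 ± 0.0032 in WT red over WT dark, -0.41 ± 0.0034 in phyB red over WT red, -0.10 ± 0.0029 in phyAB red over WT red and 0.31 ± 0.0033 in phyAB red over phyB red.

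WT red was set against WT dark to see what red light changed in wild type, and each mutant against WT red to see what differed where PHYB, or PHYA and PHYB, were mutated. The 4 comparisons share libraries, so their values stand side by side and no agreement between them is read. In WT red over WT dark 8 of the 10 genes were called higher and 1 lower, where 46.8% of all tested genes were called, 24.1% higher and 22.7% lower. The libraries of 9 of the 10 did not overlap between these groups, and neither did those of 70.9% of all tested genes. The median log2 change of the 10 was 0.33, and that of all 20716 tested genes was 0.0022. In phyB red over WT red 0 were called higher and 8 lower, where 27.2% of all tested genes were called, 13.1% higher and 14.1% lower. Here 9 of the 10 did not overlap, against 60.3% of all, and the median was -0.53 for the 10 and 0.0019 for all. In phyAB red over WT red 2 were called higher (BGLU21 and BGLU19) and 8 lower, where 45.0% of all were called, 22.3% higher and 22.7% lower. For 10 of the 10 the libraries did not overlap, against 70.0% of all, at medians of -0.15 and 0.0026. In phyAB red over phyB red 8 were called higher and 1 lower (BGLU18), where 50.2% of all were called, 26.1% higher and 24.1% lower. There 9 of the 10 did not overlap, against 72.8% of all, at medians of 0.31 and 0.0074. The genes were chosen from these libraries, so nothing is read from the counts against the background. With the libraries of a group summed and an assumed coefficient of variation of 0.1, 2 of the 10 were called in WT red over WT dark, where 16.8% of all tested genes were called. Under that setting 4 were called in phyB red over WT red (3.02% of all), 4 in phyAB red over WT red (13.2% of all) and 3 in phyAB red over phyB red (19.1% of all).

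**Figure D2:**
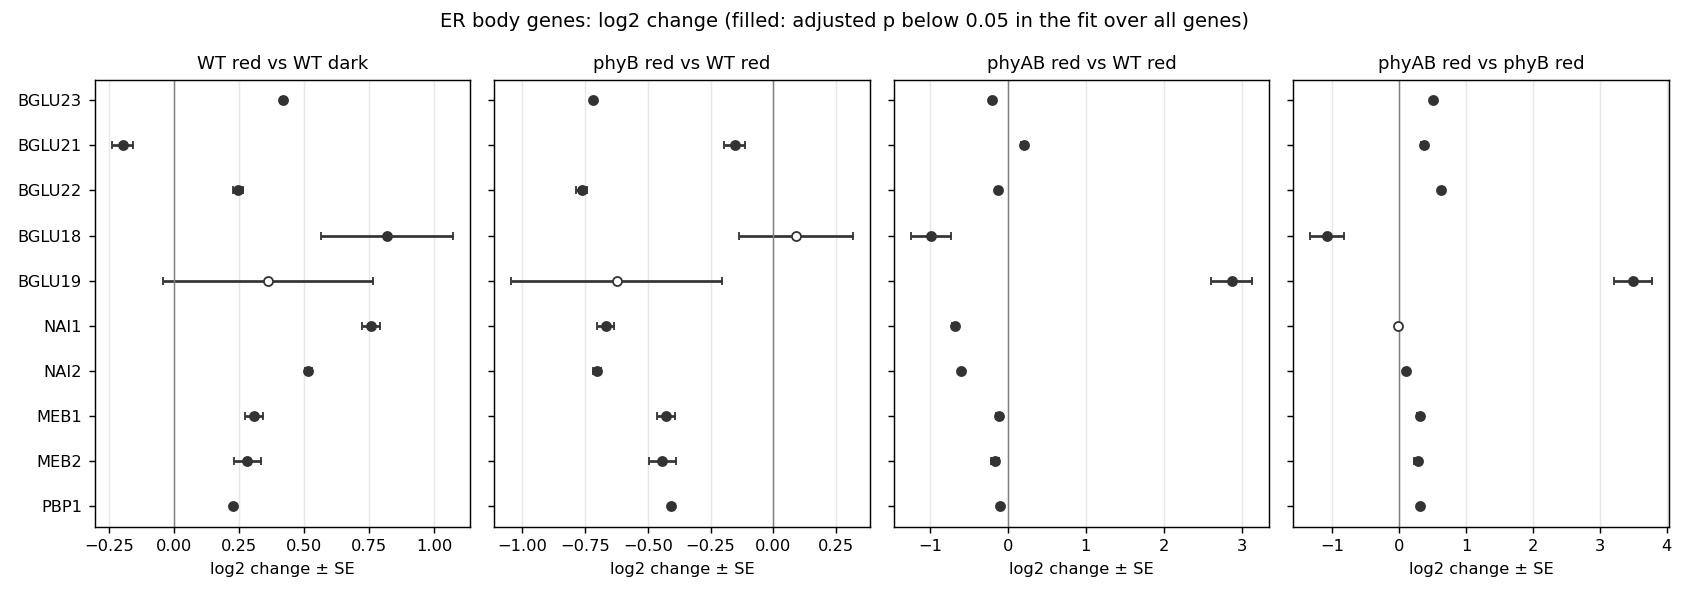
Log2 change of each ER body gene (horizontal axis, error bars are the SE of the fit, a separate scale per panel) in 4 comparisons. Filled points passed an adjusted p of 0.05 in the fit over all genes. In phyB red over WT red 8 of the 10 points are filled and lie below 0, and in phyAB red over WT red BGLU19 stands apart at 2.87.

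The mutants in red light were next placed on the wild-type span, with WT dark set to 0% and WT red to 100% on the scale of mean CPM. The 8 genes whose WT red libraries both lay above WT dark were placed. BGLU21, lower in WT red, and BGLU19, whose groups overlapped, have no such span. The ranges are over the 8 ways of taking 1 library from each of the 3 groups and are a description. BGLU23 stood at 46.8% (45.5% to 48.2%) in phyAB red and at -55.7% (-56.5% to -55.0%) in phyB red. In phyAB red PBP1 stood at 53.1% (51.2% to 55.1%), MEB1 at 57.3% (45.3% to 69.3%), MEB2 at 37.98% (23.9% to 57.3%) and BGLU22 at 45.1% (37.7% to 53.1%). In phyB red PBP1 stood at -69.1% (-71.5% to -66.9%), MEB1 at -32.7% (-47.4% to -21.6%), MEB2 at -45.8% (-84.9% to -21.2%) and BGLU22 at -159.87% (-173.84% to -147.56%). These 4 genes and BGLU23 were thus between the wild-type levels in phyAB red and below WT dark in phyB red. BGLU18 ran the other way, at -16.6% (-107.66% to 21.4%) in phyAB red and 121.92% (47.9% to 267.59%) in phyB red, with wide ranges on its few reads. NAI1 lay near WT dark in both mutants, at 8.20% (5.02% to 11.6%) in phyAB red and 10.03% (3.04% to 17.6%) in phyB red. NAI2 lay somewhat below WT dark in both, at -13.8% (-17.9% to -10.1%) in phyAB red and -28.1% (-33.5% to -23.2%) in phyB red. The same can be read from the log2 changes against WT dark, a comparison added after seeing the data. BGLU23 was at 0.21 in phyAB red and -0.30 in phyB red over WT dark, whereas NAI1 was at 0.08 in phyAB red and 0.09 in phyB red. Of BGLU23, BGLU22, MEB1, MEB2 and PBP1, MEB2 was not called in phyAB red over WT dark (0.12 ± 0.053). For summed libraries at an assumed coefficient of variation of 0.1, neither these genes nor NAI1 were called over WT dark in either mutant. That setting called 4369 of all tested genes in phyB red and 2902 in phyAB red over WT dark.

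**Figure D3:**
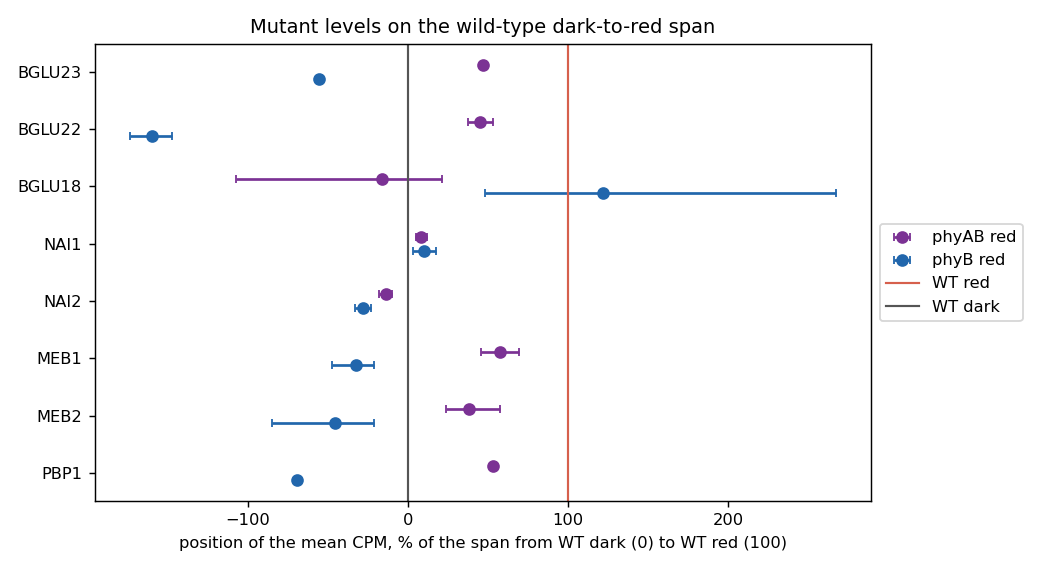
Mean CPM of 8 ER body genes in phyAB red and phyB red as a percentage of the span from WT dark (0, dark line) to WT red (100, red line). Points use the group means and bars run over the 8 combinations of single libraries. The phyAB red points of BGLU23, BGLU22, MEB1, MEB2 and PBP1 lie between the lines and their phyB red points left of 0, both NAI1 points lie just right of 0, and BGLU18 has its phyB red point right of 100 with a wide bar.

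Levels of different genes were compared per model length, in RPKM. BGLU23 averaged 8928 RPKM in phyAB red, 6181 in phyB red, 9863 in WT red and 7524 in WT dark. PBP1 came next with 3981 RPKM in phyAB red, 3172 in phyB red, 4091 in WT red and 3559 in WT dark. BGLU23 thus exceeded it 2.24 times in phyAB red, 1.95 times in phyB red, 2.41 times in WT red and 2.11 times in WT dark. NAI2 followed with 751 RPKM in phyAB red, 692 in phyB red, 1092 in WT red and 778 in WT dark. BGLU22 had 232 RPKM in phyAB red, 147 in phyB red, 243 in WT red and 208 in WT dark. The regulator NAI1 averaged 89.0 RPKM in phyAB red, 88.7 in phyB red, 136 in WT red and 82.1 in WT dark, and the ratio of BGLU23 to NAI1 was 100.36 in phyAB red, 69.65 in phyB red, 72.5 in WT red and 91.6 in WT dark. Below NAI1 came MEB1, BGLU21 and MEB2, and last BGLU18 and BGLU19. The order was the same in all 4 groups except that BGLU21 was above MEB1 in WT dark and BGLU19 was above BGLU18 in phyAB red.

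Likeness to BGLU23 was measured by Pearson's r of log2 CPM over the 8 libraries, which form only 4 groups, and is given without a p. Among the 20716 tested genes, the one most like BGLU23 was PBP1 at r = 0.999. Within the set MEB1 (0.983), MEB2 (0.964), BGLU22 (0.959), NAI2 (0.808) and NAI1 (0.699) followed. BGLU21 (0.420), BGLU19 (0.419) and BGLU18 (-0.174) were unlike it. In all, 126 genes had r above 0.9, a count that includes BGLU23 itself. The 5 most alike outside the set were NSP1 (0.995) and NSP4 (0.993), nitrile-specifier proteins that steer the products of glucosinolate breakdown and whose genes lie beside PBP1 on chromosome 3, the methyltransferase family gene AT5G37990 (0.992), the oxygenase family gene AT1G06640 (0.992) and the MATE efflux gene AT5G38030 (0.991). NSP1 averaged 3451 ± 18.6 CPM in phyAB red, 2445 ± 19.99 in phyB red, 4246 ± 14.8 in WT red and 3064 ± 6.001 in WT dark (SD, n = 2). AT5G37990 averaged 65.7 ± 2.95 CPM in phyAB red, 12.8 ± 0.897 in phyB red, 105.19 ± 3.92 in WT red and 37.99 ± 1.94 in WT dark.

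Genes outside the set that work with ER bodies were examined in lists, with adjusted p from the edgeR quasi-likelihood test over all tested genes. The lists too were chosen with earlier results of these data known, so they are no independent check. Their p-values rest on a spread between libraries that may be technical. In counts of every list below, rose and fell mean called at an adjusted p below 0.05. Of all tested genes 46.8% were called in WT red over WT dark and 27.2% in phyB red over WT red. In phyAB red 45.0% were called over WT red and 50.2% over phyB red. The first list holds jacalin-related lectins and GDSL lipase-like proteins that bind the PYK10 complex after cell damage, and 9 of its 10 genes were tested. JAL23 was not, at or below 0.1002 CPM in every library. In WT red over WT dark 7 of the 9 rose and 1 fell, at a median of 0.26. JAL35 rose by 0.55 ± 0.012 (adjusted p = 1.99e-81), JAL31 by 0.54 ± 0.026 (3.96e-41) and GLL23 by 0.53 ± 0.030 (7.45e-35), whereas MLP-300B changed by -0.36 ± 0.065 (8.97e-07). All 9 fell in phyB red over WT red, at a median of -0.52. JAL22 had 1966 and 1986 CPM in phyB red, against 3761 and 3767 CPM in WT red, a log2 change of -0.93 ± 0.0029 (3.51e-34). JAL35 changed by -0.65 ± 0.012 (6.91e-88), JAL31 by -0.59 ± 0.026 (4.61e-44) and JAL34 by -0.56 ± 0.0082 (1.86e-06).

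Of the 9 genes 6 fell and 2 rose in phyAB red over WT red, at a median of -0.18. JAL35 changed by -0.51 ± 0.011 (adjusted p = 7.51e-79, edgeR), JAL33 by -0.42 ± 0.0094 (1.18e-07), JAL31 by -0.36 ± 0.026 (7.22e-27) and JAL34 by -0.35 ± 0.0072 (3.37e-06). GLL23 rose by 0.20 ± 0.028 (6.99e-10). MLP-300B, the other gene counted as higher, lost its call without WT red replicate 2, without phyAB replicate 1 and by DESeq2. Against phyB red, 8 of the 9 rose in phyAB red and 0 fell, at a median of 0.30, among them JAL22 by 0.84 ± 0.0028 (1.78e-34), GLL23 by 0.71 ± 0.029 (7.59e-49), MLP-300B by 0.50 ± 0.068 (9.14e-11) and GLL22 by 0.45 ± 0.053 (2.63e-13). The lipase-like gene MVP1 had -0.48 ± 0.035 (1.11e-25) in phyB red over WT red and -0.18 ± 0.033 (1.46e-06) in phyAB red over WT red. The summed level of the list was 9757 to 9821 CPM in phyAB red, 7486 to 7504 in phyB red, 11700 to 11784 in WT red and 9971 to 9975 in WT dark.

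The second list holds 8 partners of ER bodies and relatives of NAI1, all tested. In WT red over WT dark 1 rose and 2 fell, at a median of 0.015, where 46.8% of all tested genes were called. In phyB red over WT red 0 rose and 3 fell, at a median of -0.13, where 27.2% of all were called. In phyAB red over WT red 1 rose and 1 fell, at a median of 0.11, where 45.0% of all were called. In phyAB red over phyB red 5 rose and 1 fell, at a median of 0.32, where 50.2% of all were called. The cysteine protease RD21A, a cargo of ER bodies, rose by 0.31 ± 0.0073 (adjusted p = 1.13e-75, edgeR) in WT red over WT dark. It changed by -0.42 ± 0.0076 (6.52e-90) in phyAB red over WT red, in phyB red over WT red by -0.07 ± 0.0063 (3.16e-17) and in phyAB red over phyB red by -0.36 ± 0.0073 (1.34e-83), the fall counted there. SEC24A, a coat protein of export from the endoplasmic reticulum, changed by -0.19 ± 0.032 (1.47e-07) in WT red over WT dark and by -0.19 ± 0.033 (8.00e-07) in phyB red over WT red. Over phyB red SEC24A rose by 0.16 ± 0.033 (2.00e-05) in phyAB red. With the libraries of a group summed and an assumed coefficient of variation of 0.1, neither RD21A nor SEC24A was called in these comparisons. TSA1, a relative of NAI2, averaged 11.6 ± 0.718 CPM in phyAB red, 10.4 ± 1.01 in phyB red, 10.6 ± 1.54 in WT red and 9.08 ± 0.300 in WT dark (SD, n = 2) and was called in none of these 4 comparisons. The Kunitz-type inhibitor gene AT1G72290 had 26 and 27 reads in phyAB red, 1 and 1 in phyB red, 1 and 0 in WT red, and 11 and 5 in WT dark. It was thus highest in phyAB red and near the limit of detection elsewhere in red light. It passed the filter on low counts only through the phyAB red libraries. It is the 1 gene of this list counted as higher in phyAB red over WT red and 1 of the 5 counted as higher over phyB red. Its direction in these counts was set by the filter. It is also 1 of the 2 counted as lower in WT red over WT dark.

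Of the 42 other genes of the BGLU family 31 were tested. In WT red over WT dark 18 rose and 3 fell, at a median of 0.39. BGLU6 rose by 3.63 ± 0.18 (adjusted p = 5.47e-40, edgeR), BGLU9 by 2.90 ± 0.15 (5.57e-38) and BGLU40 by 0.98 ± 0.11 (2.18e-14), and the dark-inducible gene BGLU30 (DIN2) fell by 1.14 ± 0.043 (3.35e-52). Against WT red, 12 fell and 3 rose in phyB red, at a median of -0.14, with BGLU28 at -1.34 ± 0.18 (3.24e-10), BGLU11 at -0.66 ± 0.075 (1.17e-13), the myrosinase BGLU38 (TGG1) at -0.46 ± 0.053 (2.88e-13) and BGLU16 at -0.37 ± 0.030 (1.22e-21).

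Of the 31 genes 10 fell and 8 rose in phyAB red over WT red, at a median of 0.0047. BGLU9 changed by -1.62 ± 0.13 (adjusted p = 2.87e-23, edgeR), BGLU6 by -1.11 ± 0.13 (8.59e-14), BGLU38 by -0.50 ± 0.053 (4.75e-15) and BGLU15 by 0.55 ± 0.090 (6.09e-08). Between the mutants 14 rose and 6 fell in phyAB red over phyB red, at a median of 0.29. Among those with a mean of at least 5 CPM the largest changes were falls, with BGLU6 at -1.34 ± 0.12 (4.17e-19) and BGLU9 at -1.27 ± 0.13 (5.04e-16), while BGLU28 rose by 0.89 ± 0.19 (2.43e-05) and BGLU15 by 0.78 ± 0.091 (1.56e-13). BGLU4 and BGLU27, counted among those higher in phyAB red in both comparisons, passed the filter on low counts only through the phyAB red libraries, so their direction there was set by the filter. BGLU26 (PEN2), an atypical myrosinase of peroxisomes and mitochondria, changed by -0.20 ± 0.033 (1.58e-07) in phyB red over WT red and by 0.26 ± 0.031 (1.66e-12) in phyAB red over WT red. BGLU25 changed by 0.01 ± 0.054 (0.921) in phyB red over WT red and by 0.34 ± 0.052 (1.21e-08) in phyAB red over WT red.

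Indole glucosinolates are substrates of PYK10, and all 14 genes of the list of their synthesis were tested. In WT red over WT dark 8 rose and 3 fell, at a median of 0.16. The regulator MYB34 rose by 1.14 ± 0.037 (adjusted p = 5.32e-59, edgeR), and CYP81F4 and CYP81F2, which modify the indole ring, rose by 1.59 ± 0.026 (1.01e-94) and 1.46 ± 0.16 (4.25e-14). CYP81F3 changed by -0.84 ± 0.11 (6.24e-11). Against WT red, 10 fell and 1 rose in phyB red, at a median of -0.61. CYP79B3 and CYP79B2, which make the first intermediate from tryptophan, changed by -0.99 ± 0.049 (6.33e-40) and -0.88 ± 0.062 (2.64e-26), CYP81F4 by -0.94 ± 0.024 (4.52e-70) and CYP81F2 by -1.03 ± 0.16 (1.19e-08).

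Of the 14 genes 10 rose and 2 fell in phyAB red over WT red, at a median of 0.38. CYP79B2 had 82.6 and 89.3 CPM in phyAB red, against 52.6 and 56.9 CPM in WT red, a log2 change of 0.65 ± 0.051 (adjusted p = 3.76e-23, edgeR). CYP81F2 rose by 1.12 ± 0.12 (4.23e-15) and CYP81F3 by 0.89 ± 0.11 (5.23e-12), while CYP81F4 changed by -1.19 ± 0.025 (1.66e-81). Between the mutants 9 rose and 1 fell in phyAB red over phyB red, at a median of 0.81, with CYP81F2 at 2.15 ± 0.13 (5.31e-31), CYP79B2 at 1.53 ± 0.057 (2.69e-53), CYP79B3 at 1.38 ± 0.046 (1.67e-58) and the glucosyltransferase gene UGT74B1 at 1.19 ± 0.065 (1.43e-36). The median of this list in phyAB red over WT red was above 0, while that of the 10 ER body genes was -0.15; the difference was not tested.

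Markers of various root cell types and of the shoot epidermis were followed beside the set. All 7 shoot epidermis markers rose in WT red over WT dark, at a median of 0.69. Their summed level was 2963 to 2982 CPM in phyAB red, 2832 to 2872 in phyB red, 3080 to 3097 in WT red and 1968 to 1982 in WT dark. In phyB red over WT red 3 of the 7 fell and 2 rose, and in phyAB red over WT red 4 fell and 2 rose. Of the 14 root markers 2 rose and 4 fell in WT red over WT dark, 1 rose and 2 fell in phyB red over WT red, and 6 rose and 0 fell in both phyAB red over WT red and phyAB red over phyB red. The shares of all tested genes called, given with the first list of related genes, stand beside these counts, and nothing is read from them. The summed level of the root markers was 361 to 364 CPM in phyAB red, 304 to 316 in phyB red, 295 to 299 in WT red and 314 to 320 in WT dark. Most of this sum was CASP1, with means of 226, 199, 176 and 181.5 CPM in the same order. The sum does not stand for each marker, as RHD6 averaged 6.61, 0.962, 3.75 and 9.59 CPM. No marker of either list was at 0 reads in any group. The part of either tissue in the levels of the ER body genes was not tested.

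**Figure D4:**
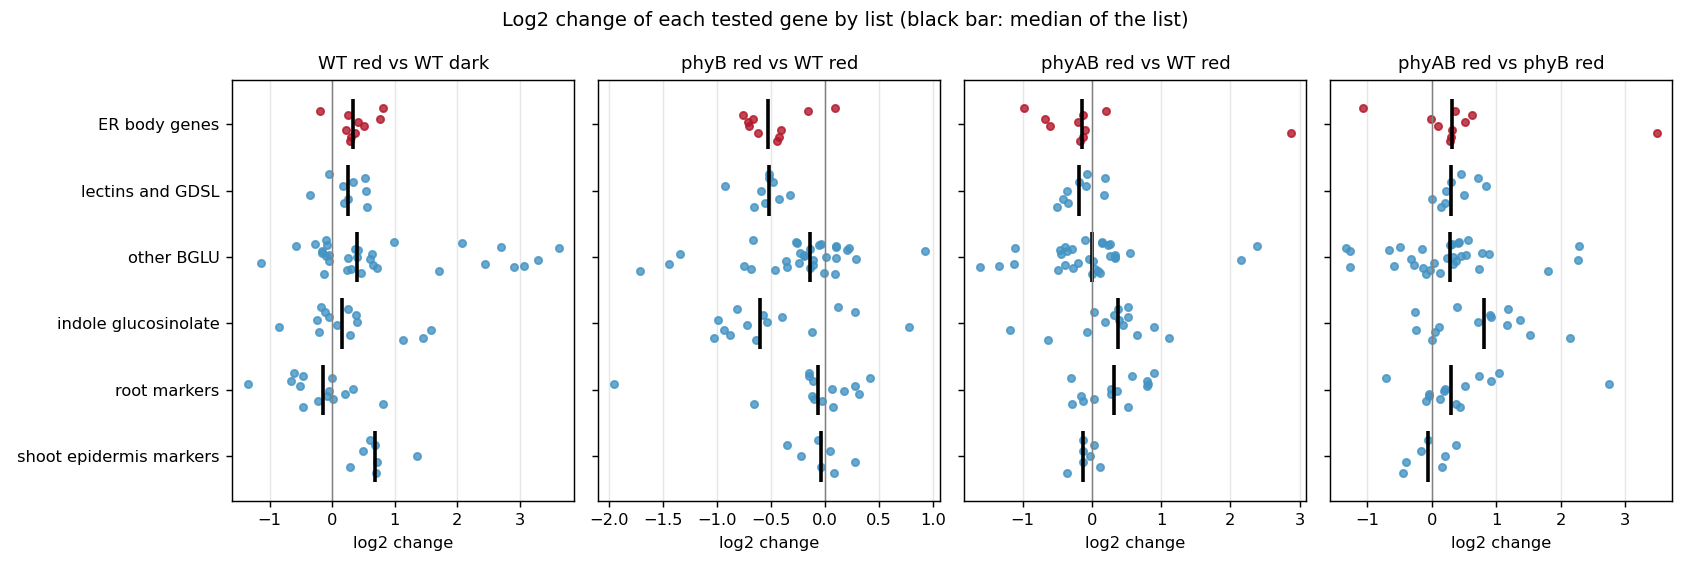
Log2 change of each tested gene (points; horizontal axis, a separate scale per panel) by list in 4 comparisons, with a black bar at the median of the list. The ER body genes are in red and the related lists in blue. The second list, of ER body partners and relatives of NAI1, is not drawn (median -0.13 in phyB red over WT red). In phyB red over WT red the bars of the ER body genes (-0.53), the lectins with GDSL proteins (-0.52) and the indole glucosinolate genes (-0.61) lie left of 0, and in phyAB red over WT red the glucosinolate bar (0.38) lies right of 0.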

How the data were processed

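Per the file headers, each deposited file holds a whole-number read count and an RPKM value, a count adjusted for model length and library size, for 27416 transcript models, 1 per locus. Per the submitters' processing notes the genome build was TAIR10. The sources used here do not give the aligner, the counter, its rule for multi-mapping reads or its strand setting. RPKM as deposited equals the count divided by a model length and the library total, since the implied length was whole within 0.01 for 100% of 24548 models with reads.

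The counts were tested with edgeR 4.0.16 in R 4.3.3 (TMM scaling, filterByExpr with a minimum count of 10, robust quasi-likelihood fit to all 8 libraries, Benjamini-Hochberg adjustment over 20716 genes, two-sided, called at an adjusted p below 0.05). Every adjusted p comes from this test. Standard errors are those of the fit. Log2 changes are first group over second, and folds give the size of the change whatever its direction. CPM is the count scaled by the TMM library size. RPKM was used to compare genes.

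Totals ran from 15926547 to 22116924 reads, so that 3 reads, the most that a count of 0 allows, are 0.136 to 0.188 CPM. The floors cover counting error only, and the reads carry no molecular identifiers. The standard errors also hold the spread between the libraries of a group, which may be technical. WT red was compared with WT dark, phyB red and phyAB red with WT red, and phyAB red with phyB red. Comparisons of the mutants with WT dark were added after seeing the data. DESeq2 1.42.0, other scalings, no filter, pairwise fits, a replicate block, single libraries left out, and summed libraries with an assumed coefficient of variation were tried as alternatives. Same-numbered libraries of different groups did not deviate together (r between -0.0272 and 0.0134 over 12724 genes with a mean of at least 10 CPM), so the numbers were not taken as pairs.

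The 10 genes, the related lists and the tests were chosen with earlier results of these data known. From each list the text names up to 4 called genes per comparison with a mean of at least 5 CPM and the largest change, a fixed set whatever their values, and the 5 genes most like BGLU23. Gene names come from a RefSeq table of assembly TAIR10.1, which named 26719 loci. Sequences and coordinates were read from that assembly and its annotation with Biopython 1.88. Only 20.2% of 24178 matched models had the length of the RefSeq transcript of the same number, 2 of the 10 genes (BGLU23 and MEB1) among them, so the starts of the authors' models may differ.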

Additional observations from a re-analysis of the deposited data

How the results depend on the processing

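Of 440 log2 changes of the 10 genes recomputed under the alternatives in the 4 comparisons, 406 kept their side of the threshold. A further 34 kept the direction but lost the call, and 0 changed direction where either value was called. A change of sign between values that were both not called was not counted as a reversal and would be among the 406. When the comparisons of the mutants with WT dark were included, 603 values kept their side of the threshold and 57 lost the call. With both libraries of a group summed and an assumed coefficient of variation of 0.1, the numbers of the 10 genes called were 2 in WT red over WT dark (BGLU18, NAI1), 4 in phyB red over WT red (BGLU23, BGLU22, NAI1, NAI2), 4 in phyAB red over WT red (BGLU18, BGLU19, NAI1, NAI2) and 3 in phyAB red over phyB red (BGLU22, BGLU18, BGLU19). Over all genes that setting called 3479, 625, 2740 and 3956 genes in the same order, against 9689, 5633, 9330 and 10392 with the spread between libraries. That setting puts a larger assumed spread in place of the measured one. It also removed calls of named genes of the related lists in all 4 comparisons. Among them were JAL31, JAL34, BGLU38 and BGLU16 in phyB red over WT red, and JAL31 and GLL23 in WT red over WT dark. Others were JAL35, JAL33 and BGLU15 in phyAB red over WT red, and GLL22 and MLP-300B in phyAB red over phyB red. DESeq2 called 3660 genes in phyB red over WT red, and the cause was not tested. Leaving out 1 library gave 8121 to 8726, 4258 to 4733, 7684 to 8140 and 8853 to 9356 genes, and 8 to 9, 7 to 8, 9 to 10 and 8 of the 10 ER body genes in the same order. Fewer libraries entered each of those fits. With the replicate number as a block, 9699, 5662, 9342 and 10413 genes were called, and 9, 8, 10 and 9 of the 10, as without it. Same-numbered libraries share only a number, and the block changed no call of the 10 genes. Levels of a few CPM, as of BGLU18 and BGLU19, are limited by their read counts.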

Other observations

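BGLU24, a BGLU family gene picked after its values were seen, averaged 7.90 ± 0.260 CPM in phyAB red, 2.25 ± 0.186 in phyB red, 7.47 ± 0.0815 in WT red and 2.29 ± 0.332 in WT dark (SD, n = 2). The log2 change of BGLU24 was 1.71 ± 0.19 in WT red over WT dark, -1.71 ± 0.19 in phyB red over WT red and 0.09 ± 0.15 in phyAB red over WT red. As the gene was picked on these values, no p is given for it. MYB34, the regulator of indole glucosinolate synthesis, averaged 108 ± 0.304 CPM in phyAB red and 107.35 ± 0.417 in phyB red, against 167 ± 2.72 in WT red and 75.9 ± 0.484 in WT dark.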
